A study of Mus musculus with 33 samples.

Results

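The transcripts of 8 secreted factors, Vegfa, Igf1, Hgf, Pdgfb, Hbegf, Areg, Osm and Grn, were followed across cell classes, tissues and biotin sorts in single-cell RNA sequencing of mouse metastatic niches. The genes were taken as a fixed list of growth and angiogenic factors, matched by symbol, and all 8 were found among the 32285 genes of the deposited tables. In the study, cells of the niche were tagged with biotin in an overnight labelling step (SAMENT, a niche-labelling method), the tissue was dissociated with collagenase, and biotin-positive cells were sorted from biotin-negative cells before droplet sequencing. Comparing the sorts asks which transcripts differ between labelled and unlabelled cells of the same organ.

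The intracardiac experiment held 32 samples, 4 biotin-positive and 4 biotin-negative from each of bone (femurs and tibias), brain, liver and lung, made as 3′ libraries with CellPlex tags. The IIA experiment held bone alone, in 1 pooled 5′ library that the hashtag note divides into 6 positive and 6 negative samples; the labels do not spell out IIA. All groups went through substrate labelling, none is described as free of tumour, and the labels used here give no strain, age or tumour line. A negative sample is therefore an unlabelled remainder of the same kind of tissue, not healthy tissue. Nothing says whether samples came from separate animals, so the p-values measure the spread between these samples only.

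After filtering, 55363 intracardiac cells remained (94 to 3504 per sample, 482617 to 44833984 UMIs per sample) and 22362 IIA cells (249 to 3480 per sample, 2149784 to 27903856 UMIs). Levels are CPM, the UMIs of a gene scaled to the total UMIs of the summed cells of a sample, and levels in the 3′ and 5′ experiments were not compared with each other. Cells were clustered without the 8 genes, and clusters were named from marker lists. The name "macrophage" and the others mean macrophage-like and so on. A cluster could stay unnamed through few markers, a tie between lists, another list leading its first genes or a low UMI count. Such a cluster is called by some of its leading genes. Intracardiac libraries of the same replicate number shared 0 cell barcodes over 112 pairs of libraries, and other pairs shared 380 barcodes in all, at most 7 in a pair.

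One class went against its label. In the IIA experiment, cells of the macrophage class from the negative sort had little of the C1q genes that define tissue macrophages: C1qa had a median of 79.8 CPM (0 to 663) against 1063 CPM (812 to 2237) in the positive sort. The 24 macrophage markers summed to 479 to 5235 CPM over the 6 negative samples, with Cd163, Vsig4, Clec4f, Marco and Lyve1 at 0, and to 9189 to 21509 CPM over the 6 positive samples, with Clec4f at 0. The 17 monocyte markers summed to 5095 to 8753 CPM in the negative and 2293 to 4092 CPM in the positive samples, and the 17 neutrophil markers to 8422 to 59030.1 and 1416 to 32920.3 CPM. The class is called below by some of its leading genes, the Pf4 Hmox1 Lgmn cells, since the cluster led by these genes held 90.1% of its negative and 86.3% of its positive cells. The name is a label only, as Pf4 and Hmox1 were themselves lower in the negative cells. Pf4 had a median of 17.5 CPM in the negative and 2731 CPM in the positive samples, and Hmox1 160 and 1529 CPM.

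The 8 proteins signal through different receptors. Vegfa drives endothelial growth through Flt1 and Kdr, and Pdgfb recruits pericytes and other mural cells through Pdgfrb. Igf1 acts on Igf1r and Hgf on Met, both survival and growth receptors of many epithelial and mesenchymal cells. Hbegf and Areg are membrane-bound ligands of Egfr that are released by proteases such as Adam17, and Hbegf also binds Erbb4. Osm is an IL-6 family cytokine that acts through Il6st paired with Osmr or Lifr, and Grn encodes progranulin, a secreted and lysosomal protein that binds sortilin (Sort1).

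RefSeq promoter entries of the files' build matched 5 of the 8 genes (Areg, Grn, Hgf, Igf1 and Vegfa). The 250 bases before the RefSeq start (GRCm38.p6, the mm10 build) are shown for Areg, whose highest level was in innate lymphoid cells, for Igf1 and Grn, whose highest levels were in macrophages, and for Vegfa, whose UMIs were spread over many classes. They lie at chr5:91139349-91139598 on the forward strand, chr10:87860861-87861110 on the forward strand, chr11:102430257-102430506 on the forward strand and chr17:46032378-46032627 on the reverse strand, upstream of the first exon in each case. Each is printed 5′ to 3′ on the strand of its gene, and capitals mark matches to the motifs searched.
Areg: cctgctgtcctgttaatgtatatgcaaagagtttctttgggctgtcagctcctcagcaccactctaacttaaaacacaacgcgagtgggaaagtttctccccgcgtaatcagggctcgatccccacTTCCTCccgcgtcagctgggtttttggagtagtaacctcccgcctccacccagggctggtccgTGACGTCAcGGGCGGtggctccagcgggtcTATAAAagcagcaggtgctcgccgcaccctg
Igf1: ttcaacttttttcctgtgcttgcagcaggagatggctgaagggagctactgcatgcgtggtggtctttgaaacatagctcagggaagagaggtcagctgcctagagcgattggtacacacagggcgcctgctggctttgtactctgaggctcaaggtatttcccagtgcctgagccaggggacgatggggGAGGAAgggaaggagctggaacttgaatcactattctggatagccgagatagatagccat
Grn: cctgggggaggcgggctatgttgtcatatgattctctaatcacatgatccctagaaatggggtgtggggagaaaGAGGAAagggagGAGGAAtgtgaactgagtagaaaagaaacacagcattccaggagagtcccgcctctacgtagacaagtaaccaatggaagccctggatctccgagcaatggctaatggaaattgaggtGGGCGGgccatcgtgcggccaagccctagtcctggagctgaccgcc
Vegfa: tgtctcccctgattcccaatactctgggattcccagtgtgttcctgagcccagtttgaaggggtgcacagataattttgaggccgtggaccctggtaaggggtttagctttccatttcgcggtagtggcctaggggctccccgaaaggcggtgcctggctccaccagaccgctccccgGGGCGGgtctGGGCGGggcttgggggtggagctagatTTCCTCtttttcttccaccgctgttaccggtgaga

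The motifs, each searched on both strands, were the cAMP response element TGACGTCA, the GC box (letters GGGCGG), the classical promoter element TATAAA that lies upstream of many starts, the purine-rich core of ETS and PU.1 sites spelled GAGGAA, which reads as TTCCTC where it lies on the opposite strand, and the core of hypoxia-response elements, ACGTG. Areg held the cAMP response element 61 bases before its start, the GC box at 52, TATAAA at 31 and the purine-rich core on the opposite strand at 124. Of 32851 promoters of this length, 1.55% held the cAMP response element, 32.7% the GC box, 12.4% held TATAAA and 23.3% the purine-rich core. Igf1 held the purine-rich core at 60 bases and none of the others. Grn held the GC box at 46 bases and the purine-rich core at 176 and 164, and Vegfa held the GC box at 72 and 62 bases and the purine-rich core on the opposite strand at 35. The hypoxia-response core, present in 16.6% of promoters, did not match in these 4 windows. No motif overlapped another, the matches describe letters, and none was tested as a binding site.

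Each gene had its own pattern over the cell classes: Igf1 and Grn were highest in macrophages, Hgf in endothelial cells, Pdgfb in microglia, Hbegf in endothelial cells, Areg in innate lymphoid cells, Osm in cells led by Il1b, Ccrl2 and Acod1, and Vegfa in cells led by Pf4, Spp1 and Ppbp. These are means over samples with at least 20 cells of a class, among the 19 intracardiac classes seen in at least 3 samples. Neighbours among the 5 highest classes overlapped in their sample ranges for each gene, and the order is a description without a test. In the values that follow, n counts samples of all groups that had enough cells, unless a tissue and sort is named. The class with the highest mean was the same for all 8 genes when CPM were averaged per cell, and for 6 of 8 with finer clusters, where Hbegf was highest in macrophages and Osm in cells led by Acod1, Il1b and Cxcl2.

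**Figure D1:**
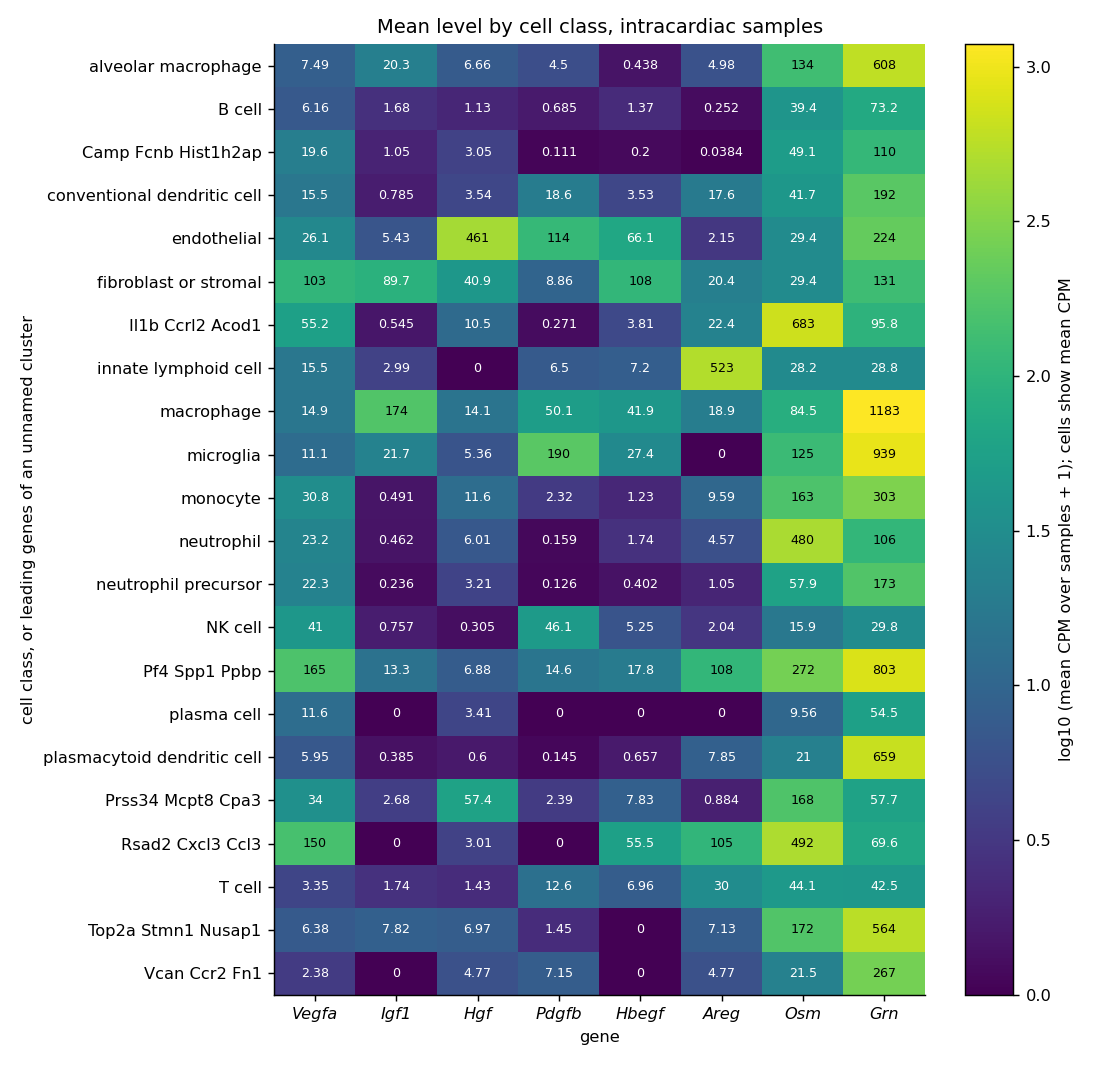
Mean level of each gene (columns) in each intracardiac cell class or unnamed cluster (rows), as CPM over samples with at least 20 cells of the class; the number is the mean CPM, the colour its log10(CPM + 1), and columns are read one at a time. Igf1 (174 CPM) and Grn (1183 CPM) are highest in macrophages, Areg (523 CPM) in innate lymphoid cells and Hgf (461 CPM) in endothelial cells.

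Igf1, the insulin-like growth factor that macrophages and stromal cells supply to their surroundings, was highest in macrophages in the intracardiac experiment. Its level in macrophages was 174 ± 97.5 CPM (SD, n = 17; 25.6 to 402), against 21.7 ± 16.8 CPM (SD, n = 3; 7.45 to 40.3) in microglia and 20.3 ± 10.4 CPM (SD, n = 5; 5.31 to 31.8) in alveolar macrophages. Macrophages were 5.22% of cells and held 59.8% of the 3933 Igf1 UMIs. Within them, the level was 275 ± 159 CPM (SD, n = 3; 96.6 to 402) in positive bone, 201 ± 59.0 CPM (SD, n = 4; 143 to 263) in positive brain and 168 ± 29.6 CPM (SD, n = 3; 137 to 195) in positive liver. Negative brain macrophages stood at 48.1 ± 29.9 CPM (SD, n = 3; 25.6 to 82.1), a range that did not reach that of the positive brain samples; with microglia joined in, the groups overlapped and the difference did not pass (adjusted p = 0.275). In liver, negative macrophages stood at 127 and 233 CPM (n = 2), a range that spans that of the positive samples. In IIA bone, stromal cells stood at 50.2 ± 16.2 CPM (SD, n = 3; 39.8 to 68.8).

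Hgf, the ligand of Met made by mesenchymal and liver sinusoidal cells, had its highest levels in the liver. Endothelial cells of liver carried 795 ± 242 CPM (SD, n = 3; 517 to 961) in the negative and 574 ± 395 CPM (SD, n = 3; 119 to 802) in the positive sort, while the 1 lung sample with enough endothelial cells stood at 36.1 CPM and the 2 brain samples at 0 and 5.37 CPM. The liver endothelial cluster was led by Clec4g, Gpr182 and Kdr, genes of sinusoidal endothelium. The other high class was made of cells led by Prss34, Mcpt8 and Cpa3, genes of basophils and mast cells, at 57.4 ± 17.6 CPM (SD, n = 6; 30.2 to 80.7). In IIA bone, where basophils were named as a class, they had 307.7 ± 99.2 CPM (SD, n = 4; 233 to 448), above the range of the next class, stem or progenitor cells at 48.2 ± 15.7 CPM (SD, n = 6; 34.8 to 69.7). Basophils were 0.675% of IIA cells and held 13.7% of Hgf UMIs, while neutrophils, with a low level per cell, held 30.01%.

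Vegfa, the principal endothelial growth factor, was highest in 3 clusters that the naming rule left unnamed. Cells led by Pf4, Spp1 and Ppbp had 165 ± 119 CPM (SD, n = 16; 14.2 to 423) and cells led by Rsad2, Cxcl3 and Ccl3 had 150.2 ± 54.5 CPM (SD, n = 5; 94.6 to 225), followed by cells led by Il1b, Ccrl2 and Acod1 at 55.2 ± 60.8 CPM (SD, n = 24; 7.41 to 285). The Pf4 Spp1 Ppbp cells were 3.11% of intracardiac cells and held 27.3% of the 11551 Vegfa UMIs. In positive lung they held 64.9%. In IIA bone, cells led by Cacnb2, Glis3 and Rad51b had 216.9 ± 87.6 CPM (SD, n = 4; 102 to 293) and the Pf4 Hmox1 Lgmn cells 215 ± 79.6 CPM (SD, n = 11; 6.69 to 297), while neutrophil precursors, with 53.3 ± 14.4 CPM (SD, n = 12; 36.7 to 79.9), held 40.0% of the UMIs, or 24.0% without positive replicate 5.

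Pdgfb, which endothelial cells and platelets are known to supply to mural cells, was highest in cells of the brain. Microglia had 190.4 ± 86.0 CPM (SD, n = 3; 104 to 276) and brain endothelial cells of the positive sort 302.9 ± 111 CPM (SD, n = 2; 225 to 381), with endothelial cells of all organs at 114 ± 135 CPM (SD, n = 9; 0 to 381). Microglia were 18.9% of positive brain cells and held 69.7% of their Pdgfb UMIs. Macrophages followed at 50.1 ± 46.8 CPM (SD, n = 17; 10.7 to 171) and NK cells at 46.1 ± 20.4 CPM (SD, n = 13; 12.7 to 79.5). In IIA bone, 1 sample had enough osteoclasts for a value, 108 CPM; osteoclasts were 0.2504% of cells and held 16.9% of Pdgfb UMIs, or 9.01% without positive replicate 3.

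The Egfr ligands Hbegf and Areg were highest in different classes. Hbegf, a heparin-binding growth factor, was at 66.1 ± 33.6 CPM (SD, n = 9; 13.2 to 109.7) in endothelial cells, 55.5 ± 49.0 CPM (SD, n = 5; 0 to 113) in Rsad2 Cxcl3 Ccl3 cells and 41.9 ± 53.6 CPM (SD, n = 17; 0 to 199.9) in macrophages, which held 48.0% of its 3031 UMIs. In positive liver, macrophages held 87.3% of Hbegf UMIs. Positive liver replicate 2 carried both shares: without it, macrophages held 14.8% of all intracardiac Hbegf UMIs and 18.8% of those in positive liver. In IIA bone Hbegf was highest in stromal cells, at 110.4 ± 83.3 CPM (SD, n = 3; 51.6 to 206) and above the range of the next class; stromal cells, 0.908% of cells, held 53.5% of its 568 UMIs.

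Areg, the amphiregulin that group 2 innate lymphoid cells are known to make, was highest in innate lymphoid cells led by Calca, Il1rl1 and Gata3, at 523 ± 328 CPM (SD, n = 5; 51.1 to 901). The 4 brain samples among these 5 had 355, 688, 901 and 51.1 CPM, and the lung sample 618 CPM. In negative brain these cells were 2.43% of cells and held 74.4% of the 507 Areg UMIs, or 46.4% without negative replicate 3. The Pf4 Spp1 Ppbp cells came next, at 108 ± 116 CPM (SD, n = 16; 0 to 381), with 47.3% of all intracardiac Areg UMIs and 78.1% of those in positive lung. Without positive lung replicate 1 these shares were 21.2% and 51.3%.

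Osm, oncostatin M, a cytokine that myeloid cells release on activation, was highest in neutrophils and clusters led by inflammatory genes. The Il1b Ccrl2 Acod1 cells had 683 ± 326 CPM (SD, n = 24; 223 to 1413), the Rsad2 Cxcl3 Ccl3 cells 492 ± 88.5 CPM (SD, n = 5; 360.0 to 593) and neutrophils 479.6 ± 306.1 CPM (SD, n = 31; 75.1 to 1153). Neutrophils held 42.8% of the 71025 Osm UMIs. In lymphocytes it was low, at 39.4 ± 27.3 CPM (SD, n = 26) in B cells and 44.1 ± 48.3 CPM (SD, n = 25) in T cells. The IIA cells led by Acod1, Hcar2 and G0s2 had 1263 ± 373 CPM (SD, n = 10; 691 to 1839) against 110.1 ± 23.7 CPM (SD, n = 12; 71.9 to 152) in IIA neutrophils, and these ranges did not overlap.

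Grn, which cells with many lysosomes are known to express strongly, was highest in macrophages, at 1183 ± 603 CPM (SD, n = 17; 483 to 2454), then microglia at 939 ± 84.8 CPM (SD, n = 3; 881 to 1036), Pf4 Spp1 Ppbp cells at 803 ± 355 CPM (SD, n = 16; 293 to 1438), plasmacytoid dendritic cells at 659 ± 179 CPM (SD, n = 9; 457 to 1026) and alveolar macrophages at 608 ± 106 CPM (SD, n = 5; 439.8 to 701). Macrophages of positive liver stood at 1833 ± 678 CPM (SD, n = 3; 1109 to 2454) and those of positive brain at 910.0 ± 149 CPM (SD, n = 4; 699.6 to 1049). The cells that held most Grn UMIs changed with the organ: alveolar macrophages held 57.8% in positive lung, macrophages 81.4% in positive liver, and in positive brain macrophages held 52.5% and microglia 32.2%. The liver share was 32.3% without positive replicate 2. In brain, macrophages held 27.5% and microglia 50.7% without positive replicate 2, and microglia 13.03% without positive replicate 4.

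**Figure D2:**
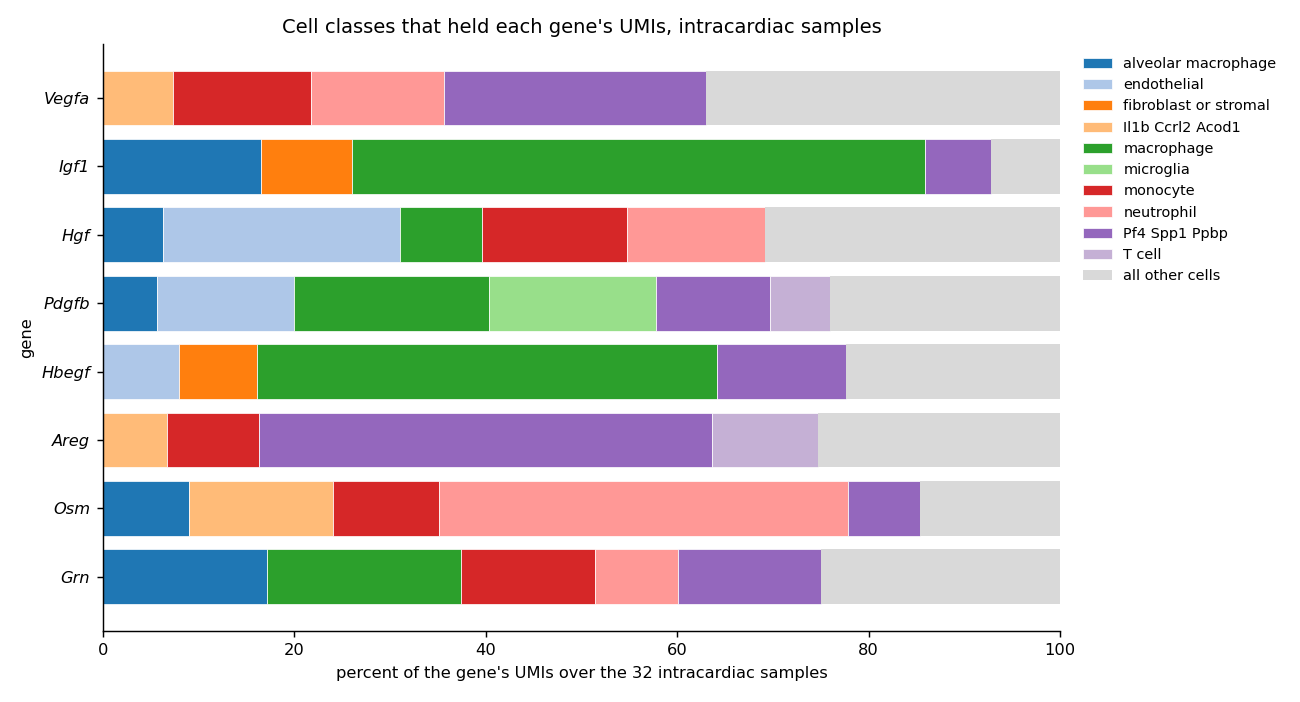
Share of each gene's UMIs, in percent, that came from each cell class over the 32 intracardiac samples, as stacked bars that add up to the whole. Macrophages held 59.8% of Igf1 UMIs, Pf4 Spp1 Ppbp cells 47.3% of Areg UMIs and neutrophils 42.8% of Osm UMIs.

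The sorts were then compared over all cells of a sample. In the intracardiac tissues, Igf1 was higher in positive cells of brain and lung, Pdgfb higher in positive brain and Grn higher in positive lung, while no gene of the 8 passed the test in bone or liver. In IIA bone Igf1, Vegfa, Pdgfb and Hbegf were higher and Hgf lower in positive cells. By edgeR's quasi-likelihood test with Benjamini-Hochberg adjustment over all genes, 0 of 8 were called in bone (0% of all genes tested), 2 of 8 in brain (3.06%), 0 of 8 in liver (0%), 2 of 8 in lung (18.3%) and 5 of 8 in IIA bone (50.2%), so that the shares in IIA bone and lung were near those of all genes. At an unadjusted p under 0.05 there were 3 in bone and 4 in liver, and DESeq2 called 0 (0.407% of all genes) and 1 (3.64%). Some genes passed the count filter, which asks for a minimum level in as many samples as a group holds, through the positive samples alone, so that they had to be higher there: Igf1 in brain, lung and IIA bone, Pdgfb and Hbegf in IIA bone, and Hbegf in brain and liver. Areg in brain and liver passed it through the negative samples alone. Fits without the filter called the same 2 genes in brain (2.45% of all genes), 2 in lung (9.47%) and 5 in IIA bone (26.3%), with adjusted p for Igf1 of 0.00807, 0.0206 and 0.000548, and of 0.00323 for Pdgfb and 0.0182 for Hbegf in IIA bone. In such sums, a larger share of a cell class and a higher level within its cells cannot be told apart.

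Class shares moved with the sort. Macrophages were 4.26% ± 3.52 (SD) of negative and 35.4% ± 31.9 of positive brain cells, 0.988% ± 0.939 and 26.03% ± 36.9 in liver, 0.193% ± 0.130 and 11.6% ± 14.4 in bone, and alveolar macrophages were 0.274% ± 0.352 and 43.5% ± 26.9 in lung (n = 4 in each group). In IIA bone (n = 6), the Pf4 Hmox1 Lgmn class went from 2.42% ± 1.34 to 19.9% ± 19.4, neutrophils from 52.5% ± 5.47 to 18.1% ± 8.84 and neutrophil precursors from 10.5% ± 3.72 to 26.9% ± 17.4. Fits without the macrophage classes are given below; the part of the neutrophil classes in the results on all cells was not tested.

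**Figure D3:**
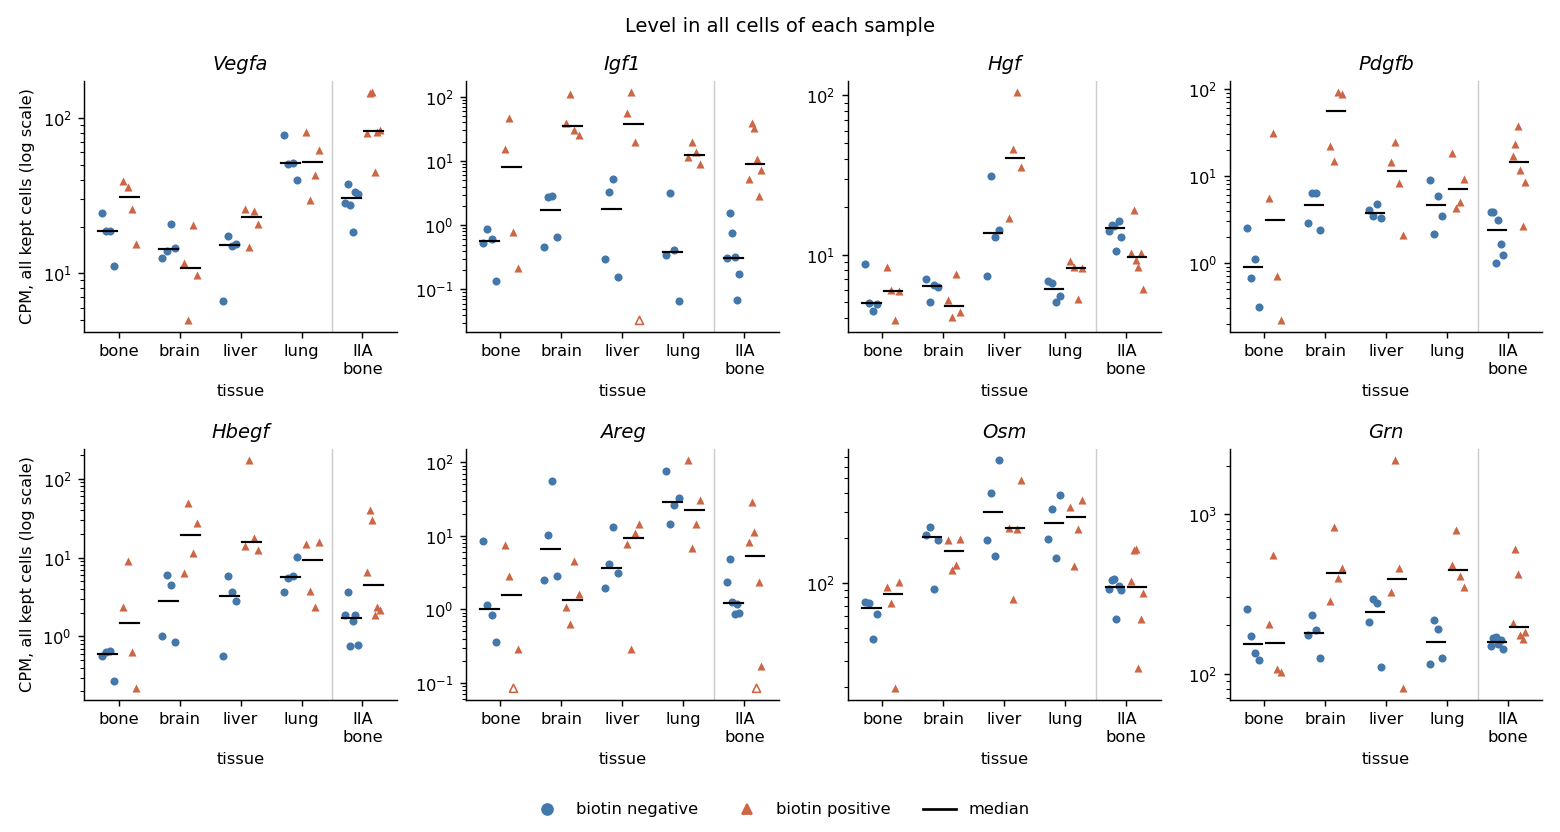
Level of each gene over all cells of a sample, in CPM on a log axis, by tissue; circles are negative and triangles positive samples in replicate order, black lines are medians, and open symbols are samples at 0, drawn below the lowest value. The positive samples of brain and lung all lie above the negative samples for Igf1.

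In brain, Igf1 stood at 0.455, 2.77, 2.84 and 0.663 CPM in negative replicates 1 to 4 and at 39.0, 112, 30.1 and 25.3 CPM in positive replicates 1 to 4. Every positive sample lay above every negative sample, as for 14.5% of all genes tested in brain, and positive replicate 2 was far above the rest (log2 fold change 4.79, SE 0.76, adjusted p = 0.0192). In lung it stood at 0.346, 3.23, 0.417 and 0.0659 CPM in the negative and 11.4, 19.9, 13.7 and 8.85 CPM in the positive samples. Those groups did not overlap either, as for 17.7% of genes in lung (log2 fold change 3.38, SE 0.88, adjusted p = 0.0299). In bone the values were 0.521, 0.859, 0.609 and 0.134 CPM and 15.6, 46.3, 0.772 and 0.219 CPM. In positive bone replicates 1 and 2 were high while replicates 3 and 4 lay within the negative range (log2 fold change 4.61, SE 1.37, adjusted p = 0.615).

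In liver Igf1 was at 0.303, 3.23, 5.19 and 0.157 CPM in the negative and 55.3, 117, 19.9 and 0 CPM in the positive samples, with the fourth positive sample at 0 and the other 3 above every negative sample (log2 fold change 4.28, SE 1.13, adjusted p = 0.178). The brain call was lost without negative replicate 1, 3 or 4 or positive replicate 4 (adjusted p up to 0.0988), and the lung call without negative replicate 1 or 3 or positive replicate 2 or 3 (up to 0.0724). With the replicate number as a block, the adjusted p was 0.00762 in brain. In IIA bone, Igf1 had a range of 0.0692 to 1.55 CPM (median 0.312) in the 6 negative and a range of 2.87 to 38.9 CPM (median 8.97) in the 6 positive samples. The IIA groups did not overlap, as for 22% of genes there (log2 fold change 4.82, SE 0.83, adjusted p = 0.000533), and the call held in all 12 fits that left out 1 sample.

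Hgf did not pass in any intracardiac tissue. Its liver values were 7.36, 31.2, 12.9 and 14.3 CPM in the negative and 16.9, 46.0, 104 and 35.2 CPM in the positive samples. They were higher in the positive sample of 4 of 4 same-numbered pairs. Positive replicate 3 was highest and the groups overlapped (log2 fold change 1.39, SE 0.60, adjusted p = 0.364). In bone, brain and lung its 24 sample values lay between 3.86 and 9.15 CPM. In IIA bone it was the 1 gene that fell, from a range of 10.5 to 16.3 CPM (median 14.6) to a range of 6.06 to 19.2 CPM (median 9.71) (log2 fold change -0.66, SE 0.24, adjusted p = 0.0349). The groups overlapped through positive replicate 2, the highest of all 12, and the call was kept only without that sample or negative replicate 4 or 6 (adjusted p 0.000814 to 0.0753 over the 12 fits). Basophils, its highest class, were 0.784% of negative IIA cells and held 18.8% of their Hgf UMIs.

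Vegfa rose in IIA bone, from a range of 18.3 to 37.5 CPM (median 30.3) to a range of 44.7 to 146 CPM (median 82.4), without overlap (log2 fold change 1.48, SE 0.28, adjusted p = 0.000987), and the call held without any 1 of the 12 samples. In intracardiac bone it stood at 24.5, 18.7, 18.8 and 11.1 CPM in the negative and 39.1, 36.0, 25.95 and 15.5 CPM in the positive samples, higher in 4 of 4 same-numbered pairs though the groups overlapped (log2 fold change 0.50, SE 0.23, adjusted p = 0.615). In brain it stood at 12.5, 14.0, 20.6 and 14.6 CPM and 11.7, 4.98, 20.3 and 9.82 CPM, lower in 4 of 4 pairs and again with overlap (log2 fold change -0.74, SE 0.39, adjusted p = 0.318). It did not pass in liver (adjusted p = 0.651) or lung (0.581), where the negative lung samples ranged from 40.1 to 77.5 CPM and the positive from 29.4 to 81.4 CPM.

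Pdgfb rose in brain, from 2.88, 6.32, 6.43 and 2.37 CPM to 22.1, 14.9, 91.1 and 88.1 CPM. All 4 positive samples lay above all negative ones, and replicates 3 and 4 were the highest (log2 fold change 3.32, SE 0.67, adjusted p = 0.0363). The call was lost without any 1 of the negative samples or without positive replicate 3 or 4 (adjusted p up to 0.145), and was 0.0385 with the replicate block. In IIA bone it rose from a range of 0.996 to 3.88 CPM (median 2.37) to a range of 2.69 to 37.4 CPM (median 14.3) with overlap (log2 fold change 2.55, SE 0.57, adjusted p = 0.00268), called in all 12 fits with 1 sample left out. In bone 1 positive sample reached 31.1 CPM while the others lay at or under 5.55 CPM (log2 fold change 2.86, SE 1.22, adjusted p = 0.615).

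Hbegf stood at 0.555, 5.91, 3.67 and 2.82 CPM in negative and 14.2, 172, 17.5 and 12.4 CPM in positive liver. No positive value overlapped the negative ones, as for 5.22% of genes in liver, and positive replicate 2 was far above the others (log2 fold change 3.82, SE 1.02, adjusted p = 0.181). In brain it stood at 1.012, 5.93, 4.54 and 0.837 CPM and 6.29, 49.8, 11.3 and 27.6 CPM, also without overlap (log2 fold change 2.73, SE 0.82, adjusted p = 0.105); with the replicate block it passed (log2 fold change 2.79, adjusted p = 0.0311). In IIA bone it rose from a range of 0.747 to 3.66 CPM (median 1.72) to a range of 1.86 to 40.0 CPM (median 4.44), with overlap (log2 fold change 2.78, SE 0.82, adjusted p = 0.0140) and with the call kept in all 12 fits that left out 1 sample.

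Areg in brain stood at 2.53, 10.3, 56.4 and 2.83 CPM in the negative and 1.08, 0.622, 4.52 and 1.598 CPM in the positive samples. It was lower in 4 of 4 pairs, with negative replicate 3 far above the rest and overlap between the groups (log2 fold change -3.65, SE 1.15, adjusted p = 0.119); with the replicate block it passed (log2 fold change -2.70, adjusted p = 0.0412). In lung, where its levels reached 106 CPM, it stood at 75.4, 14.5, 25.9 and 32.4 CPM and 106, 6.90, 14.3 and 30.6 CPM, with replicate 1 highest in both sorts (log2 fold change -0.14, SE 0.77, adjusted p = 0.912). In IIA bone its positive samples ranged from 0 to 29.0 CPM around a median of 5.33 CPM, against 0.868 to 4.77 CPM in the negative samples (log2 fold change 1.97, SE 0.92, adjusted p = 0.0921).

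Osm did not pass the test in any tissue. Adjusted p-values were 0.969 in bone, 0.451 in brain, 0.718 in liver, 0.669 in lung and 0.879 in IIA bone. Positive and negative samples overlapped in each, for example 209.9, 235, 91.2 and 193 CPM in negative and 195, 123, 132 and 196 CPM in positive brain.

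Grn stood at 115, 217, 191 and 124 CPM in negative and 479, 796, 409 and 347 CPM in positive lung. All positive samples lay above all negative ones (log2 fold change 1.35, SE 0.31, adjusted p = 0.0190), and the call held in all 8 fits that left out 1 sample. In brain the values were 174, 232, 187 and 126 CPM and 285, 823, 394 and 459.8 CPM, also without overlap but outside the threshold (log2 fold change 1.13, SE 0.32, adjusted p = 0.0924); with the replicate block the adjusted p was 0.0238. With the block, the genes called in brain were Igf1, Pdgfb, Hbegf and Grn, higher, and Areg, lower, where 6.89% of all genes were called; this fit was not run without the count filter. In liver, positive replicate 2 reached 2160.4 CPM while replicate 4 lay at 80.8 CPM, below all negative samples (log2 fold change 1.49, SE 0.77, adjusted p = 0.430).

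Whether the difference between sorts itself varied between the 4 tissues was tested with an interaction term over the 32 samples, and 0 of the 8 genes passed, against 1.15% of all genes tested. The 1 gene with an unadjusted p under 0.05 was Hgf (adjusted p = 0.203), and the others had adjusted p-values from 0.399 to 0.951. A call in brain or lung and none in bone or liver is therefore not shown to be a difference between organs.

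The comparison was repeated without the macrophage, alveolar macrophage and microglia classes and the Pf4 Spp1 Ppbp cells, an alternative chosen after seeing the data. In lung Grn no longer passed (log2 fold change 0.43, adjusted p = 0.759) and 0 of the tested genes were called, with 0% of all genes called. In brain Pdgfb still passed (log2 fold change 2.58, adjusted p = 0.0356; 0.162% of genes called), and Grn had log2 fold change -0.56, adjusted p = 0.732. Igf1 was left out by the count filter in all 4 intracardiac tissues. In liver Hbegf had log2 fold change 2.35, adjusted p = 0.0782, with 1.06% of genes called. In IIA bone 4 genes kept their calls without the Pf4 Hmox1 Lgmn class: Igf1 (log2 fold change 3.12, adjusted p = 0.0110), Vegfa (log2 fold change 1.40, adjusted p = 9.65e-05), Pdgfb (log2 fold change 1.95, adjusted p = 0.0118) and Hbegf (log2 fold change 3.28, adjusted p = 0.0134), with 54.4% of all genes called. Hgf lost its call there (log2 fold change -0.64, adjusted p = 0.101).

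Within single classes, genes of the 8 passed in the Pf4 Hmox1 Lgmn cells of IIA bone and in no other class that was fitted. In these cells Igf1, Grn and Pdgfb were higher and Osm lower in the positive sort, where 20.3% of all genes tested were called. Hgf, Hbegf and Areg did not pass the count filter. Igf1 and Pdgfb passed it through the positive samples alone and Osm through the negative samples alone, so that of these only Grn passed it in both sorts, and no count over the tested genes is drawn. Without the filter, when all 8 genes were tested, the same 4 were called (7.27% of all genes), with adjusted p = 0.00121 for Pdgfb and 0.00321 for Osm. The lower C1q level, lower macrophage markers and higher monocyte and neutrophil markers of the negative cells moved with these differences. The 14 megakaryocyte and platelet markers moved with them too, from 354 to 767 CPM in the negative samples (8 markers at 0) to 871 to 8141 CPM in the positive samples (4 at 0), without overlap. Pf4, a marker of both macrophages and platelets, went from a range of 7.70 to 323 CPM to a range of 267 to 7184 CPM. The part of these markers in the differences was not tested.

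Igf1 was at 0 in all 6 negative samples (0 of 1947873 UMIs over the group) and at 30.5, 59.9, 68.0, 178, 69.5 and 256 CPM in positive samples 1 to 6 (390 of 5595873 UMIs). Every positive sample was above 0, and against a floor of 3 counts over the negative group the pooled level was at least 45.3-fold higher. Grn had a range of 254 to 348 CPM (median 289) in the negative and a range of 622 to 980.0 CPM (median 834) in the positive samples. The Grn groups did not overlap (log2 fold change 1.47, SE 0.15, adjusted p = 2.39e-05). The share of all genes without overlap is not given within cell classes, so a lack of overlap there is a description only.

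Pdgfb was at 0 in 3 negative samples and otherwise reached 30.8 CPM, against a range of 35.0 to 89.1 CPM (median 65.6) in the positive samples, again without overlap (log2 fold change 2.29, SE 0.53, adjusted p = 0.00705). Osm was the gene that fell, from a range of 167 to 827 CPM (median 325) to a range of 9.90 to 249.8 CPM (median 123) with overlapping groups (log2 fold change -1.67, SE 0.44, adjusted p = 0.0135). Vegfa, at a median of 199.7 CPM in the negative and 230.4 CPM in the positive samples, did not pass (log2 fold change 0.06, SE 0.51, adjusted p = 0.957). The calls of Grn, Pdgfb and Osm held in every fit that left out 1 sample and still tested the gene, and also in the cluster led by Pf4, Hmox1 and Lgmn taken alone (25.2% of genes called). With finer clusters 0 of the genes were called.

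**Figure D4:**
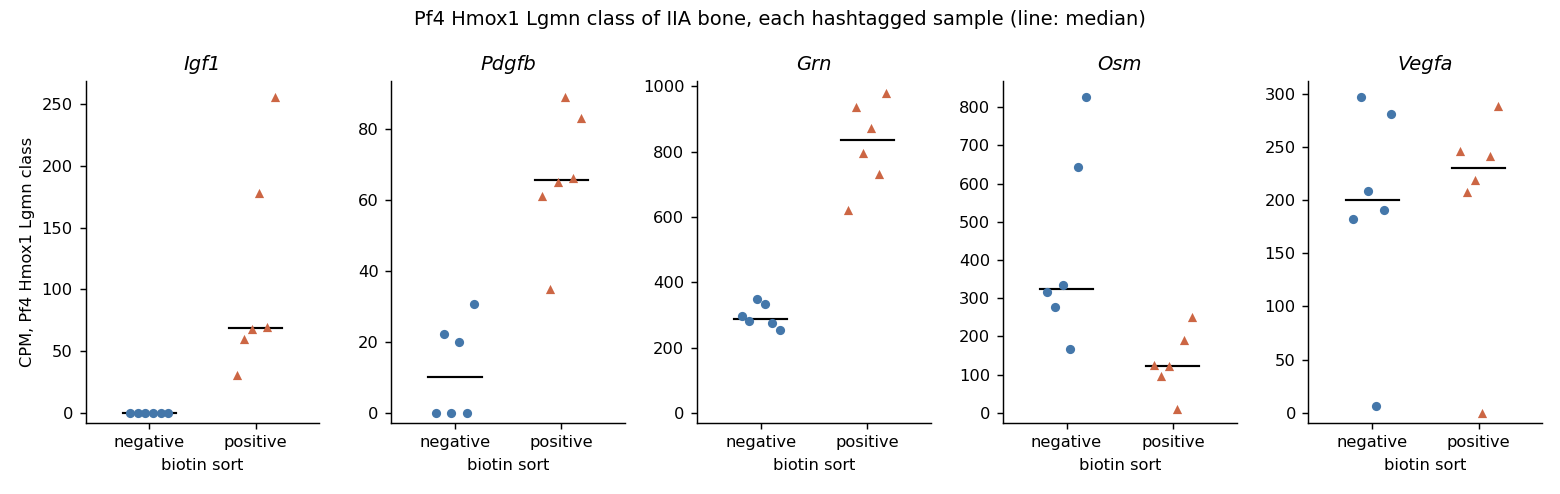
Level of the 5 tested genes in the Pf4 Hmox1 Lgmn class of IIA bone, in CPM on a linear axis, for 6 negative (circles) and 6 positive (triangles) samples with black lines at the medians. Igf1 is at 0 in the 6 negative samples, and the Grn and Pdgfb groups do not overlap, where the share of all genes without overlap is not given.

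In the joined macrophage and microglia classes of brain, 0 of 4 tested genes passed (0.197% of genes). Igf1 ranged from 24.2 to 56.0 CPM in the negative and from 52.3 to 222 CPM in the positive samples, with overlap (log2 fold change 1.42, SE 0.47, adjusted p = 0.275). Grn ranged from 572 to 721 CPM and from 842 to 1035 CPM, without overlap (log2 fold change 0.39, adjusted p = 0.424), where the share of all genes without overlap is not given. The sorts held different cells of the joined classes: in brain, the microglia cluster was 11.9% of these cells in the negative and 32.5% in the positive sort. In liver, the Cd5l Clec4f cluster went from 48.9% to 88.3%, and in lung the alveolar cluster led by Plet1 and Ear1 from 52.8% to 97.01%. None of 4 genes passed in liver macrophages (3 samples against 3, 0% of genes called) and none of 7 in lung (4 positive against 2 negative, 0.717%), while bone had 1 negative sample with enough macrophages and was not fitted. Within neutrophils and within monocytes, 0 genes were called in each of the 4 tissues and in IIA bone, where 0% of genes were called except in IIA monocytes (0.0558%). At an unadjusted p under 0.05 edgeR gave 1 gene in each of bone neutrophils, bone monocytes, liver monocytes, brain macrophages and liver macrophages and 0 in the other fits, and DESeq2 called 0 in each.

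Osm in IIA neutrophils depended on which cells were counted as neutrophils. Its log2 fold change was -0.06 in the neutrophil clusters (adjusted p = 0.970) and 2.21 (adjusted p = 0.000236, 12.2% of genes called) once the cells led by Acod1, Hcar2 and G0s2 were joined to them. Those cells, where Osm is highest, were 2.84% ± 1.61 (SD) of negative and 13.7% ± 8.51 of positive cells.

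In the negative sort, the organs differed in several of the factors. Over all cells, 5 of 8 genes passed a test across bone, brain, liver and lung: Vegfa (adjusted p = 0.00337), Hgf (0.0224), Hbegf (0.0334), Pdgfb (0.0370) and Osm (0.0409), against 11.8% of all genes. Vegfa in lung, at 40.1 to 77.5 CPM, lay above every sample of the other organs, whose highest was 24.5 CPM. Osm in bone, at 41.9 to 73.8 CPM, lay below every sample of the other organs, whose lowest was 91.2 CPM. The Vegfa call held without any 1 of the 16 samples. Hgf lost its call without bone replicate 3 or liver replicate 2 (adjusted p up to 0.109), and Hbegf, Pdgfb and Osm each lost it in 8 of 16 such fits (up to 0.102, 0.111 and 0.123), among them those without bone replicate 2, 3 or 4 or lung replicate 4.

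The same test within neutrophils called 3 of the 5 genes tested, Osm, Areg and Vegfa, against 7.34% of genes. Osm per neutrophil sample stood at 139.7, 100.02, 75.1 and 102 CPM in negative bone and at 608, 319.6, 184 and 289 CPM in negative brain. It stood at 929.9, 775, 540.3 and 1153 CPM in negative liver and at 439, 422, 307.9 and 777 CPM in negative lung. Bone was below every sample of the other organs and liver had the highest median, though it overlapped lung and brain (adjusted p = 0.000485, called in all 16 fits with 1 sample left out). The positive sort, compared as an added alternative, ranged over 123 to 252 CPM in bone, 210.4 to 684 CPM in brain, 435 to 876 CPM in lung and 653 to 1011 CPM in liver (adjusted p = 0.000429, 11.4% of genes called, 2 of 3 tested genes).

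**Figure D5:**
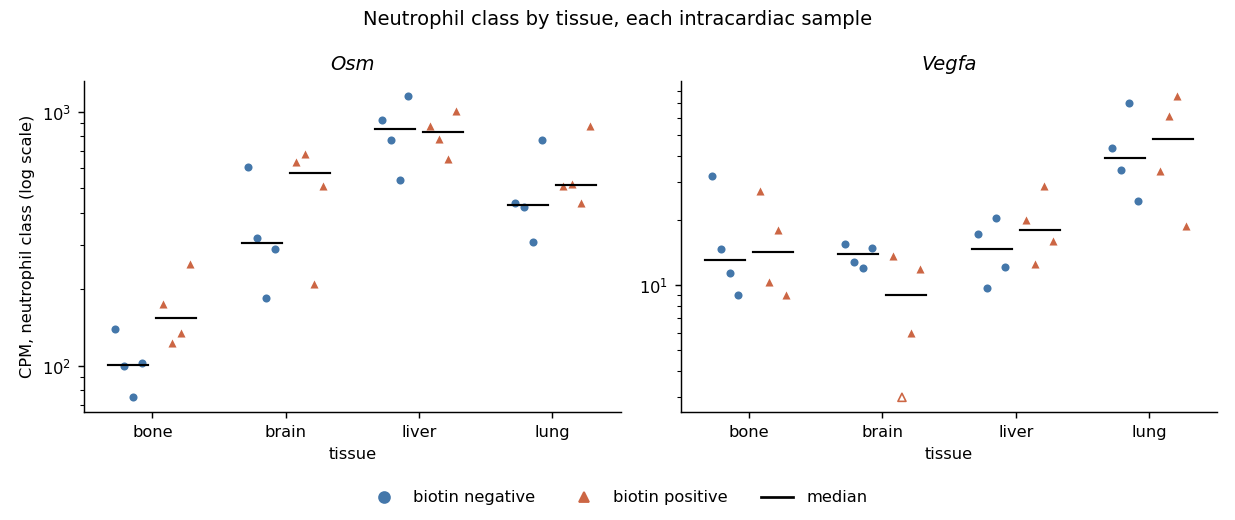
Osm and Vegfa within neutrophils, in CPM on a log axis, by tissue; circles are negative and triangles positive samples in replicate order, black lines are medians, and the open symbol is a sample at 0. Osm in negative bone (75.1 to 139.7 CPM) lies below all samples of brain, liver and lung in that sort.

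The organs held different neutrophil clusters. In negative bone, clusters led by Stfa3, Ltf and Prok2 held 31.4%, 26.3% and 22.7% of neutrophils, whereas in lung the Csta2 and Igfbp6 clusters held 57.9% and 35.9%. Within the Igfbp6 Csf3r cluster alone, Osm still differed between organs (84.0 to 105 CPM in bone, 742 to 1449 CPM in liver; adjusted p = 1.62e-07, 6.5% of genes called), and within the Csta2 Stfa2 cluster alone it did not pass (adjusted p = 0.152, 0.0566%). In the latter cluster Osm still ranged from 169 to 459 CPM in bone and from 548 to 1712 CPM in liver, without overlap. Fos, Junb and Egr1, immediate early genes that dissociation is known to induce, also had their lowest medians in bone: in negative neutrophils Fos ranged from 183 to 506 CPM in bone, 467 to 1300.1 in brain, 1142 to 2087 in liver and 934 to 2929.7 in lung, and Junb from 282 to 810.0 CPM in bone and from 2029 to 3876 CPM in liver. Egr1 ranged from 52.5 to 134 CPM in bone and from 248 to 1292 CPM in liver. Jun did not follow this order, with a range of 101 to 293 CPM in bone and 97.6 to 381 CPM in lung. The 12 neutrophil precursor markers, none of them at 0, summed to 3199 to 4787 CPM in negative bone neutrophils, 1495 to 5018 CPM in brain, 634 to 2644 CPM in liver and 591 to 1106 CPM in lung, and the nuclear RNA Malat1 ranged from 6890 to 12548 CPM in bone and from 11963 to 18851 CPM in liver. The part of these genes in the Osm difference was not tested.

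Vegfa in negative neutrophils ranged from 24.5 to 70.4 CPM in lung, 9.01 to 32.3 CPM in bone, 12.04 to 15.5 CPM in brain and 9.70 to 20.6 CPM in liver (adjusted p = 0.0296). Lung was highest but overlapped bone, and the call was lost without bone replicate 2 or 3 or any 1 of lung replicates 1 to 3 (adjusted p up to 0.102). Areg was low in neutrophils, 0 to 33.7 CPM in lung, and its call (adjusted p = 0.0162) was lost without bone replicate 3 or lung replicate 1 (up to 0.0729). In monocytes 0 of 5 tested genes passed (0.0211% of genes called), with 3 at an unadjusted p under 0.05 by edgeR and 3 called by DESeq2 (1.85% of genes).

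Receptors, partners and related ligands of the 8 factors, 78 genes in 8 lists, were counted in the same comparisons over all cells. Which sort carried these genes past the count filter was not checked. A gene that passed it through the positive samples alone had to be higher there, so no excess over the share of all genes is drawn from these counts. In brain 8 of 48 tested genes were called, 8 higher in the positive sort, against 3.06% of all genes. They were the co-receptors Nrp1 (2.08) and Nrp2 (2.32) and the ligand Vegfb (2.02) among 5 tested VEGF genes, Pdgfa (3.59) as the 1 PDGF gene tested, Tgfa (5.36) and Egfr (5.06) among 6 EGF family genes, Plau (2.77), a protease that activates Hgf, among 5, and Ang (3.02), angiogenin, among 4, with log2 fold changes in parentheses. None of 6 IGF, 10 IL-6 family and 11 progranulin partner genes passed in brain.

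In lung 16 of 52 were called, 14 higher and 2 lower, against 18.3% of all genes. Of 6 VEGF genes 4 were higher, Flt1 (3.42), Nrp2 (2.81), Vegfb (1.45) and Nrp1 (1.14), and both tested PDGF genes were, Pdgfc (4.13) and Pdgfa (2.75). Of 11 progranulin partners 5 were higher, among them Sort1 (2.22), the sortilin receptor, the protease Mmp12 (2.18), Psap (1.24), the prosaposin that carries progranulin, and the lysosomal protease Ctsb (1.15). The 2 lower genes were the kinases Jak1 (-0.93) and Jak2 (-0.81) of the IL-6 family list, and 0 of 6 IGF genes passed. Within lung macrophages 3 of 39 were called, all lower in the positive sort, Thbs1 (-2.95), Lifr (-4.19) and Mmp12 (-3.43), against 0.717% of all genes. Mmp12 thus had opposite signs over all cells and within this class. Its alveolar markers went from 3996 to 23036 CPM in the negative samples to 29821 to 38901 CPM in the positive samples. Macrophage markers went from 13836 to 15794 CPM to 3471 to 5749 CPM, and monocyte markers from 3623 to 3682 CPM to 679 to 1336 CPM. The part of these markers was not tested. In bone 0 of 51 and in liver 0 of 57 were called. In the interaction test 1 of 68 passed, Sort1 (adjusted p = 0.00419), a share near the 1.15% of all genes.

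In IIA bone 26 of 56 were called, 20 higher and 6 lower, a share near that of all genes. The IGF binding proteins Igfbp5 (6.01), Igfbp7 (2.64) and Igfbp4 (1.67) were higher among 7 IGF genes, as were Angptl4 (2.26), Tie1 (2.07) and Angpt2 (1.83) among 5 angiopoietin and related genes. Of 10 IL-6 family genes 5 were called, and the 4 with the smallest p were lower, Il6ra (-1.21), Jak1 (-0.67), Jak2 (-0.54) and Stat3 (-0.33). The fifth was higher, Osmr (2.42), a receptor subunit for Osm, named here after its value was seen. Within the Pf4 Hmox1 Lgmn class, 18 of 28 were called, 11 higher and 7 lower, against 20.3% of all genes. Of 10 progranulin partners 7 were higher, among them Ctsb (2.30), Ctsl (2.14) and Psap (0.77), and the protease inhibitor Slpi (-1.93) was lower, while 4 of 5 IL-6 family genes were lower, Jak2 (-1.21), Stat3 (-1.11), Il6st (-0.94) and Il6ra (-0.86).

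The genes whose level over the intracardiac classes was most like that of each factor were found by Pearson correlation of mean log2(CPM + 1) over 97 points, each a class in a tissue and sort, among 12580 genes. The points share libraries and depth, and the correlations are descriptions. Igf1 was most like Pdgfc (0.84), Fblim1 (0.82) and Trpv4 (0.82). Hgf was most like Hoxb5 (0.66), Hoxa4 (0.66) and Clca3a1 (0.66), and Vegfa most like Ptgs2 (0.60), Gng5 (0.59) and Map2k3 (0.59). For Pdgfb the nearest genes were Pea15a (0.80), Frmd4b (0.78) and Ctla2b (0.74), and for Hbegf they were Plxna4 (0.73), Tcim (0.71) and Gas6 (0.71). Areg was nearest to Gadd45b (0.66), Ifrd1 (0.63) and Furin (0.62), Osm nearest to Ccr1 (0.89), Lilrb4a (0.87) and Clec4e (0.86), and Grn to Ctsb (0.89), Psap (0.88) and Hexa (0.85). The likeness was closest for Osm and Grn and loosest for Vegfa.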

How the data were processed

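Droplet single-cell RNA counts were analysed for 33 deposited samples. Per the submitters' processing notes, Cell Ranger and Seurat were used with the mm10 build; no versions are listed. The values are raw UMI counts per gene and cell as deposited, not normalized by the authors. The pooled IIA sample was divided with the deposited hashtag counts (at least 10, and at least 3 times the second).

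Cells were kept from 500 UMIs and 200 detected genes upwards and up to a mitochondrial share of 15%, clustered per experiment with scanpy 1.11.5 (Leiden resolution 1.0, leidenalg 0.10.2) without the 8 genes, and named from marker lists. A leading gene of some clusters is not reported here. Doublets were scored, and the highest scores were left out as an alternative. Counts were summed per sample, or per sample and class with at least 10 cells. The sums were tested with edgeR 4.0.16 (quasi-likelihood test, TMM, Benjamini-Hochberg over all genes, threshold 0.05). SE is an approximate standard error, the size of the log2 fold change divided by the square root of the test's F value. DESeq2 1.42.0, other filters, scalings, cell limits and clusters, a replicate block and leaving out each sample were alternatives. The test was checked on simulated counts.

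The 8 genes and all lists were chosen with earlier results of these data known. In the pathway lists, up to 4 genes with the smallest p among those called were named per list, and the 3 nearest genes per factor by correlation. No main fit held the replicate number, which entered only the replicate block and the counts of pairs. Same-numbered samples were taken as pairs of sorts in bone, brain, liver and IIA bone. Their deviations correlated there at 0.404 to 0.769, 0.343 to 0.699, 0.358 to 0.721 and 0.124 to 0.669. Levels carry counting error, most for genes with few UMIs.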

Additional observations from a re-analysis of the deposited data

Results flagged for a closer look

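In 80 groups of 4 or 6 samples, 1 sample stood far from the others in 8. The limit used is passed by about 1 in 20 groups of normally distributed values. CPM of genes with few UMIs need not be so distributed, so the number by chance is not known here. All 8 are levels over all cells. Igf1 was at 112 CPM in positive brain replicate 2, where the other samples of the group had 25.3 to 39.0 CPM, and at 3.23 CPM in negative lung replicate 2, against 0.0659 to 0.417 CPM. Hgf was at 8.71 CPM in negative bone replicate 1, against 4.42 to 4.97 CPM, and at 19.2 CPM in positive IIA bone replicate 2, against 6.06 to 10.2 CPM. Hbegf reached 172 CPM in positive liver replicate 2, against 12.4 to 17.5 CPM. Areg was at 8.48 CPM in negative bone replicate 1, against 0.357 to 1.16 CPM, and at 56.4 CPM in negative brain replicate 3, against 2.53 to 10.3 CPM. Osm was low in negative IIA bone replicate 4, at 57.2 CPM against 89.2 to 105.8 CPM.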

How the results depend on the processing

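Of 1902 values of single genes under the alternatives, 1678 kept their side of the threshold and, where the test had one, their direction. A call was lost in 66 and gained in 36. A further 121 changed sign with no call in either fit, and 1 changed sign with a call in at least 1 of the 2 fits. Shares of all genes called are in parentheses. Over all cells, brain had 2 genes called (3.06%), 5 with DESeq2 (11.1%) and 5 with the replicate block (6.89%). It had 1 without macrophage classes (0.162%) and 0 to 3 with 1 sample left out. Liver had 0 (0%), 1 with DESeq2 (3.64%) and 3 with all intracardiac samples in 1 fit (3.32%). Lung had 2 (18.3%), 1 in that joint fit (16.3%), 0 without macrophage classes (0%) and 1 to 2 with 1 sample left out. IIA bone had 5 (50.2%), 4 without macrophage classes (54.4%) and 4 to 5 with 1 sample left out. The Pf4 Hmox1 Lgmn cells of IIA bone had 4, 0 at Leiden resolution 2.0 and 2 to 4 with 1 sample left out, the lower counts arising where a gene was no longer tested. Macrophages of liver and of lung had 0, and 1 in each without the low-count filter. IIA monocytes had 0 (0.0558% of all genes), and 2 at resolution 2.0, where 38.1% of all genes were called. IIA neutrophils had 0, and 2 with the Il1b Acod1 cluster joined in, where Osm had a log2 fold change of 2.21 in place of -0.06 (adjusted p = 0.970).

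Between tissues in the negative sort, all cells had 5, and 1 to 6 with 1 sample left out. Neutrophils had 3, 0 in the Csta2 Stfa2 cluster alone, 1 in the Igfbp6 Csf3r cluster alone and 1 to 3 with 1 sample left out. Monocytes had 0, 3 with DESeq2, 3 without the filter, 3 with the replicate block and 0 to 1 with 1 sample left out. The cause of these shifts was not tested. The other comparisons with 0 called genes stayed at 0 under the alternatives run. The comparisons between tissues in the positive sort, added after seeing the data, called 4 of 8 genes in all cells (30.3% of all genes) and 2 of 3 in neutrophils and had no alternatives of their own.

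For lung, same-numbered samples correlated at -0.232 to 0.604, and between tissues in the negative sort 22 of 24 pairs passed 0.1. Not every pair passed, so the numbers were not treated as pairing these samples, although between tissues the mean correlation was 0.501 for the same number and -0.167 for other numbers. The lung replicate block called 2, Igf1 (4.06, adjusted p = 0.0116) and Grn (1.38, adjusted p = 0.00486). The block changed no call between sorts other than those in brain. Few cells limit the macrophage comparisons: bone could not be fitted, lung had 2 negative samples, and genes with few UMIs per class were not tested. Shares of UMIs without 1 sample were computed after seeing the data and are given where they moved a share by over 1.5 times.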
